A study of Mus musculus with 12 samples.

Results

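The genes described are those for the import, export and storage of iron: the exporter Slc40a1 (ferroportin), the hormone gene Hamp (hepcidin), the carrier Trf (transferrin), the receptors Tfrc and Tfr2, the regulator Hfe, the metal transporters Slc11a1 and Slc11a2, and the ferritin heavy chain gene Fth1. All probe sets that the platform annotation gives to these 9 genes were taken. That gave 17 probe sets of 8 genes, out of 20380 probe sets of 12393 genes listed with 1 symbol on the array. The only probe set listed for Trf, 1425546_a_at, is listed for Srprb as well, so its values are given below for both genes together and were not tested. The genes were chosen by their role in iron handling and on earlier results of the same arrays, among them the lower Tfrc in the livers of tumor-bearing mice. The tumor against control values of these genes are therefore a description and support nothing by themselves. The control lung against control liver comparison was not used to choose them.

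RNA was measured on Affymetrix mouse MOE430A_2 expression arrays, 1 array per tissue sample, in 4 groups of 3 arrays. They were tumor-bearing lung, control lung, tumor-bearing liver and control liver. All mice were female nude NCR mice, whose thymus does not form, so that both groups have few mature T cells. The mice with a tumor had been injected with 4T1, a mammary carcinoma line of the mouse, at the orthotopic site, and the labels call their lung and liver pre-metastatic. The control mice were injected with PBS. Tissue was taken on day 7. The labels used here give no age for the mice. The design text says that lung and liver came from the same 3 tumor-bearing and 3 control mice, but no label says which arrays share a mouse.

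Cells take up most of their iron as iron-loaded transferrin, which binds transferrin receptor 1, the product of Tfrc. The metal transporter encoded by Slc11a2 carries iron out of endosomes, while that encoded by Slc11a1 moves metal ions out of the phagosomes of macrophages and neutrophils. Ferritin stores iron inside the cell, and ferroportin, the known cellular iron exporter, releases it into plasma. In the liver, Kupffer cells export iron recovered from old red cells through ferroportin, and hepatocytes make transferrin and hepcidin. Hepcidin blocks ferroportin and causes its breakdown. Hepatocytes sense iron through Hfe, transferrin receptor 2 and the BMP-SMAD pathway, and inflammatory signals raise hepcidin through STAT3. Messenger RNAs for ferritin, ferroportin, transferrin receptor 1 and one form of Slc11a2 carry iron-responsive elements, which iron regulatory proteins bind. For ferritin and ferroportin, mRNA and protein levels therefore need not move together.

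The promoter bases of Hamp and Tfrc are shown because the hepcidin promoter carries the elements through which both signals reach it, and Tfrc held the same SMAD letters. They are the 250 bases before the annotated start, from RefSeq on GRCm38.p6, printed 5′ to 3′ on the gene's strand. The Hamp bases lie on the minus strand at chr7:30944030-30944279, and those of the first Tfrc start lie on the plus strand at chr16:32608646-32608895. Capitals mark a match to GGCGCC, the SMAD element of hepcidin genes, or to TTCNNNGAA, a STAT element.
Hamp: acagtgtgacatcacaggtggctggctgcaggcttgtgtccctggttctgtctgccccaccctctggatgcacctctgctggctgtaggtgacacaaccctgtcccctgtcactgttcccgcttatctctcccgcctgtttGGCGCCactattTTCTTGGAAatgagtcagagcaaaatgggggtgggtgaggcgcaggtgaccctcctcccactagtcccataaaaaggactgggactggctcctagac
Tfrc: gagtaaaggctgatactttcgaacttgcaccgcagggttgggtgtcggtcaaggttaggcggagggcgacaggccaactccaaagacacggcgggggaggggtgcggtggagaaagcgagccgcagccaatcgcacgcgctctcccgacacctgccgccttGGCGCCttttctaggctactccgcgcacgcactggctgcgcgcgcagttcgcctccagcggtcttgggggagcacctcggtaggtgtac

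In Hamp, GGCGCC lay 109 to 104 bases before the start and TTCTTGGAA lay 97 to 89 bases before it. In Tfrc, GGCGCC lay 89 to 84 bases before the start. Both strands were searched for these motifs and for TGACNNNGC, an NRF2 element, and ACGTG, a hypoxia element, in 10 windows of Slc11a1, Tfr2, Hamp, Hfe, Tfrc and Fth1. ACGTG was found in the second Tfrc window, which overlaps the first, and in 2 of the 3 Tfr2 windows. TGACNNNGC was found in Hfe as TGACTCAGC. Of all 32851 promoter windows searched, GGCGCC was in 9.59%, TTCNNNGAA in 7.02%, TGACNNNGC in 10.2% and ACGTG in 16.6%. A match describes letters only and shows no binding. Slc40a1, Slc11a2 and Trf were not searched.

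The deposited values are log2 summaries made with GCRMA, and a difference of 1 between groups means a 2-fold difference. The lowest value was 2.044 on every array, and 26.7% to 28.5% of the values of an array lay within 0.05 of it. Alb, the albumin gene of hepatocytes, separated 2 lung arrays from the rest: it read 14.39 in tumor-bearing lung replicate 1 and 14.65 in control lung replicate 3, against 8.96 to 11.08 on the other 4. Lung results below are therefore also given without these 2 arrays where the call or the direction moves. The tissue labels fitted their markers, with a mean over 6 hepatocyte genes of 15.91 to 15.95 in tumor-bearing livers and 15.79 to 15.84 in control livers, and a mean over 4 lung epithelial genes of 15.30 to 15.50 in tumor-bearing lungs and 15.29 to 15.44 in control lungs.

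Where each gene was read without a tumor was asked first. Of 16 member probe sets tested between control lung and control liver, 9 were lower and 3 higher in lung with limma's adjusted p under 0.05. Of all 12819 probe sets tested, 78.8% passed, so passing was usual here and the count says nothing particular of the iron genes. Their direction was mostly toward liver, with a median log2 difference of -1.12 for the members and 0.17 over all probe sets tested. The order of the sizes ran from Tfr2, Hamp and Slc40a1, far lower in lung, to Slc11a2, higher in lung.

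**Figure D1:**
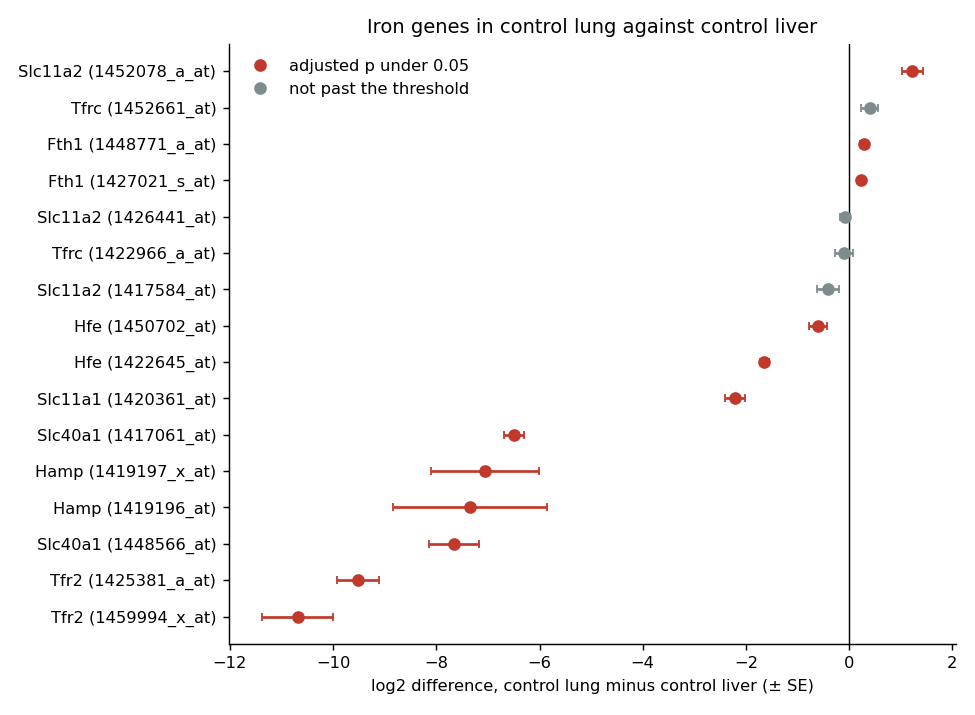
The log2 difference between control lung and control liver is plotted on the x axis for each of the 16 iron gene probe sets tested, with its standard error as a bar (3 arrays per organ). Tfr2, Hamp and Slc40a1 probe sets lie at -6.49 or below, and Slc11a2 probe set 1452078_a_at lies highest at 1.22.

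Slc40a1 had 2 probe sets. Probe set 1417061_at read 6.25, 6.06 and 6.73 in control lungs, against 13.01, 12.82 and 12.69 in control livers, a log2 difference of -6.49 (SE 0.19), or 90.1-fold lower in lung (limma adjusted p = 1.07e-06). Probe set 1448566_at read 2.98, 3.92 and 4.96 in control lungs and 11.72, 11.54 and 11.57 in control livers. Control lung carried little ferroportin transcript beside control liver by both.

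Hamp and Tfr2, genes of hepatocytes, were the other large differences. Hamp probe set 1419196_at read 3.83, 8.36 and 9.73 in control lungs, against 14.49, 14.51 and 14.96 in control livers, a log2 difference of -7.35 (SE 1.49, limma adjusted p = 0.0045). The 3 control lungs were far apart, and the highest was the array with the most Alb. The other control lungs did not keep the order of Alb: replicate 2 read 8.36 with Alb at 9.31, and replicate 1 read 3.83 with Alb at 11.08. Tfr2 probe set 1425381_a_at was at or under 4 on all control lung arrays, at 2.82, 2.35 and 3.97, and read 12.51, 12.67 and 12.51 in control livers. That makes Tfr2 at least 379-fold lower in control lung, taking 4 as the level there. The probe set passed the filter only through the control livers, so it had to differ and its limma adjusted p of 4.37e-06 adds no support. The other Tfr2 probe set, 1459994_x_at, read 2.51, 2.38 and 4.93 in control lungs and 13.88, 14.01 and 13.99 in control livers. Control lung replicate 3 was again the highest lung array. The shared Trf and Srprb probe set read 11.67, 11.73 and 12.60 in control lungs and 16.10, 16.12 and 16.14 in control livers, with the same array highest.

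Slc11a1 read 6.53, 5.81 and 6.16 in control lungs, against 8.32, 8.56 and 8.25 in control livers, 4.64-fold lower in lung (log2 difference -2.21, SE 0.20, limma adjusted p = 0.000114). Hfe, whose protein binds transferrin receptor 1, read 8.74, 8.88 and 8.96 in control lungs and 10.49, 10.57 and 10.46 in control livers with probe set 1422645_at, a log2 difference of -1.64 (SE 0.09, limma adjusted p = 1.09e-05). The dimmer Hfe probe set 1450702_at differed by -0.60 in the same direction (limma adjusted p = 0.0232, and 0.0516 to 0.0722 without any 1 of the 3 control liver arrays). Both genes were lower in control lung with no overlap of the groups.

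Slc11a2 probe set 1452078_a_at went the other way, reading 7.57, 7.94 and 7.20 in control lungs and 6.42, 6.17 and 6.45 in control livers, 2.34-fold higher in lung (limma adjusted p = 0.00179). Its probe set 1417584_at differed by -0.42 (limma adjusted p = 0.12), so the Slc11a2 probe sets disagreed. Fth1 probe set 1448771_a_at was 1.21-fold higher in control lung, at 15.98 ± 0.02 against 15.70 ± 0.01 in control liver (SD, n = 3 each, limma adjusted p = 0.00794). The other Fth1 probe set differed by 0.24 (limma adjusted p = 0.0232, and 0.0589 to 0.063 when control lung replicate 1, control liver replicate 1 or control liver replicate 2 was left out). Probe set 1448771_a_at lies close to the highest value on any array, 16.72, where array signals are known to compress differences.

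Tfrc, the gene of transferrin receptor 1, had no probe set past the threshold between the control organs. Probe set 1452661_at read 11.26, 11.38 and 11.09 in control lungs and 11, 11.02 and 10.53 in control livers, a log2 difference of 0.39 (SE 0.16) that missed the threshold (limma adjusted p = 0.0669). The adjusted p was 0.0388 after further quantile normalization. Tfrc differed between the control organs by 0.39 on the log2 scale by this probe set, while Slc40a1 differed by 6.49 by its probe set 1417061_at.

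The tumor-bearing and control arrays were then compared within each organ. In lung, 14 of the 17 member probe sets passed the filter on low values (above 4 on at least 3 arrays) and were tested, without both of Tfr2 and 1 of Tfrc. Of these 1 was higher with limma's adjusted p under 0.05, none was lower, and 4 had an unadjusted p under 0.05. Of all 12296 lung probe sets tested, 0.407% passed and 1554 had an unadjusted p under 0.05. In liver, 16 were tested, without the same Tfrc probe set, and 1 was lower, none was higher, and 7 had an unadjusted p under 0.05. Of all 11972 liver probe sets tested, 1.54% passed and 3063 had an unadjusted p under 0.05. The called probe set was one of Slc40a1 in lung and one of Tfrc in liver. The members' median log2 difference was 0.02 in lung and -0.01 in liver, beside -0.03 and -0.05 over all probe sets tested. The values do not tell a change in RNA per cell from a change in the number of cells of a type.

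**Figure D2:**
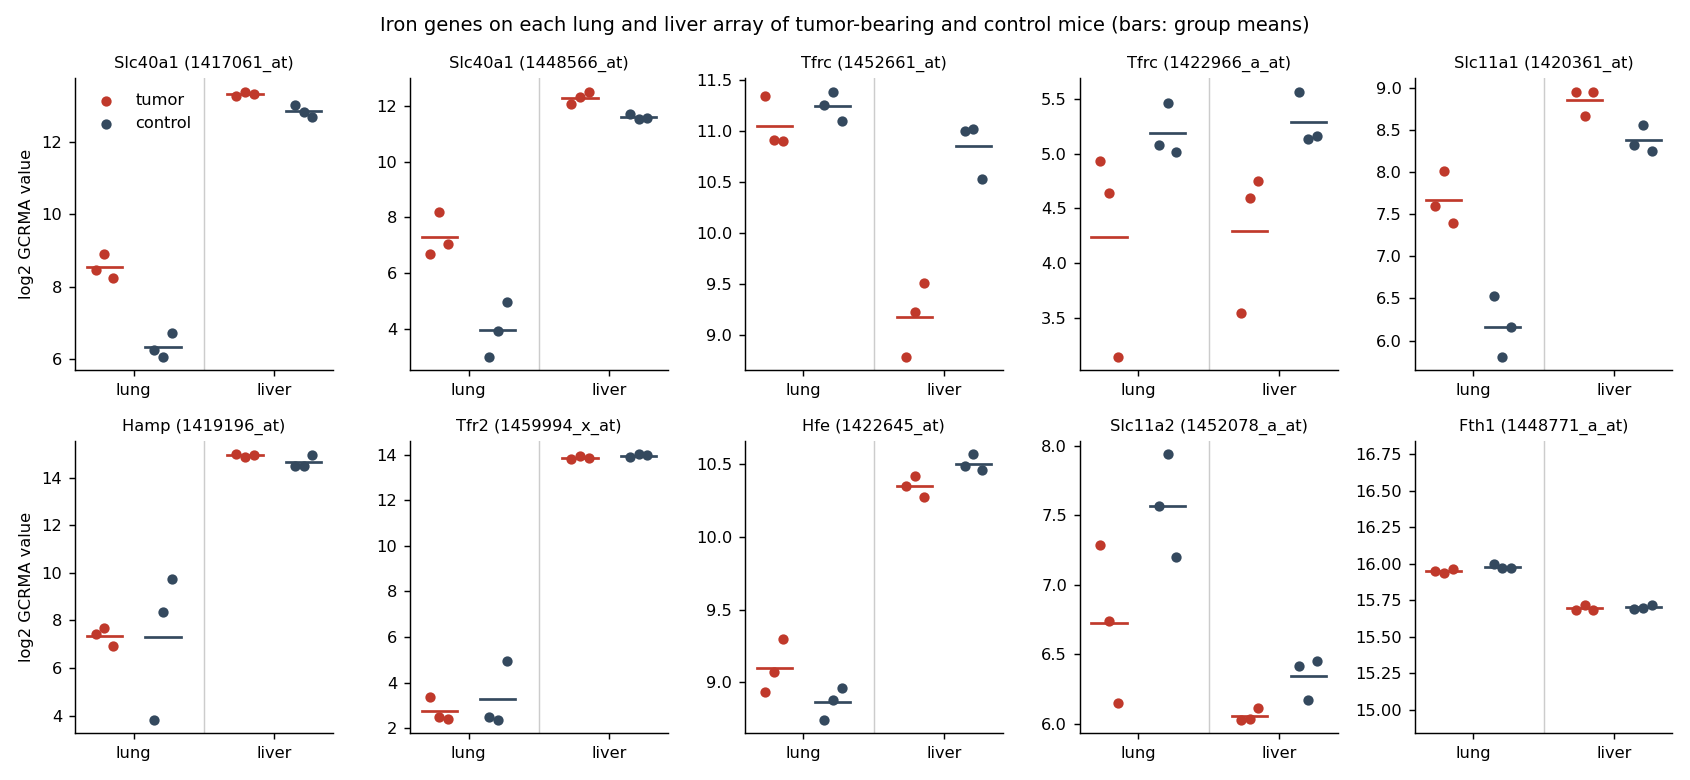
Each panel gives the log2 value of 1 probe set (y axis, with its own scale), the brightest of its gene or, for Slc40a1 and Tfrc, the 2 brightest, on the 6 lung and 6 liver arrays, tumor-bearing in red and control in dark blue, with the group mean as a bar. Slc40a1 is higher in tumor-bearing lungs by both probe sets, Tfrc probe set 1452661_at is lower in tumor-bearing livers at 8.79 to 9.51, and Fth1 and Tfr2 groups lie close together in liver.

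The iron exporter gene Slc40a1 was higher in tumor-bearing mice in both organs and by both probe sets. In lung, probe set 1417061_at read 8.45, 8.91 and 8.24 in tumor-bearing mice, against 6.25, 6.06 and 6.73 in control mice. Every tumor-bearing lung lay above every control lung. The log2 difference was 2.19 (SE 0.24), 4.55-fold higher, with a limma adjusted p of 0.0359 over all lung probe sets. The call rests on all 6 arrays: with any 1 left out the adjusted p was 0.0909 to 0.16, while the difference stayed between 2.00 and 2.38. Without the 2 lung arrays rich in Alb the difference was 2.41, and the adjusted p was 0.439 with 2 arrays per group.

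Slc40a1 probe set 1448566_at read 6.67, 8.21 and 7.05 in tumor-bearing lungs, against 2.98, 3.92 and 4.96 in control lungs. The groups again did not overlap, and 2 of the control values were under 4, where the array hardly resolves levels. With values under 4 set to 4 the log2 difference was 2.99, against 3.36 as read (SE 0.61, limma adjusted p = 0.111). In liver, probe set 1417061_at read 13.27, 13.38 and 13.31 in tumor-bearing mice and 13.01, 12.82 and 12.69 in control mice, a log2 difference of 0.48 (SE 0.10, limma adjusted p = 0.0692). Probe set 1448566_at read 12.08, 12.31 and 12.52 in tumor-bearing livers and 11.72, 11.54 and 11.57 in control livers, a log2 difference of 0.69 (SE 0.13, limma adjusted p = 0.0586). All tumor-bearing livers lay above all control livers by both probe sets. Both passed when each array was centred on its median, which moved the median of all liver probe sets by 0.12, with limma adjusted p of 0.0476 and 0.0406.

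The size of the Slc40a1 difference was set against its size in the other organ on all 12 arrays. By probe set 1417061_at the log2 difference was 1.71 larger in lung than in liver (SE 0.28, limma adjusted p = 0.0198), and 1.34% of the 13128 probe sets tested passed this comparison. The adjusted p was 0.0507 to 0.0584 when control liver replicate 1 or 2, or control lung replicate 1 or 2, was left out. By probe set 1448566_at it was 2.66 larger in lung (SE 0.67, limma adjusted p = 0.0868). That adjusted p was 0.0448 without control lung replicate 3 and 0.0411 without both lung arrays rich in Alb. The levels themselves remained far apart: tumor-bearing lungs averaged 8.53 ± 0.34 and tumor-bearing livers 13.32 ± 0.06 by probe set 1417061_at (SD, n = 3 each).

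Macrophage and neutrophil markers were read beside Slc40a1, since both cell types handle iron. In lung, the mean over 8 macrophage and Kupffer cell genes ran from 6.65 to 6.87 in tumor-bearing mice and from 6.52 to 6.56 in control mice, with 5 of 6 probe sets tested higher and none past the threshold. The Kupffer cell genes Vsig4 and Clec4f read no more than 2.31 on any lung array, near the lowest value. Cd5l, of the same list, read 3.73, 4.99 and 3.40 in tumor-bearing lungs and 3.16, 2.38 and 3.16 in control lungs. It did not pass the filter on low values and was not tested in lung. The mean over 8 neutrophil genes ran from 9.68 to 10.48 in tumor-bearing lungs and from 5.52 to 6.53 in control lungs. All 8 tested were higher and 4 passed the threshold, beside 0.407% of all lung probe sets tested. Camp, Cd177 and Mmp8, which passed the threshold, and Cxcr2, which did not, entered the test only through the tumor-bearing lungs. They had to be higher there, so the calls among them add no support. Ngp was the other called gene, averaging 11.93 in tumor-bearing and 5.82 in control lungs (limma adjusted p = 0.0354). In liver, the macrophage mean ran from 8.83 to 9.10 in tumor-bearing mice and from 8.49 to 8.73 in control mice, with 8 of 8 probe sets tested higher and none past the threshold. The neutrophil mean ran from 4.79 to 5.09 in tumor-bearing livers and from 3.30 to 4.39 in control livers. All 4 neutrophil probe sets tested in liver were higher and none passed the threshold. S100a8 differed by 4.21 and S100a9 by 3.13, against 0.72 for Ngp and 0.04 for Csf3r. Camp, Cxcr2, Mmp8 and Cd177 were at or under 4 on every liver array and were not tested. Cd177 lay within 0.05 of the lowest value on all 6 liver arrays. The part of the macrophage and neutrophil genes in the Slc40a1 and Slc11a1 differences was not tested.

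**Figure D3:**
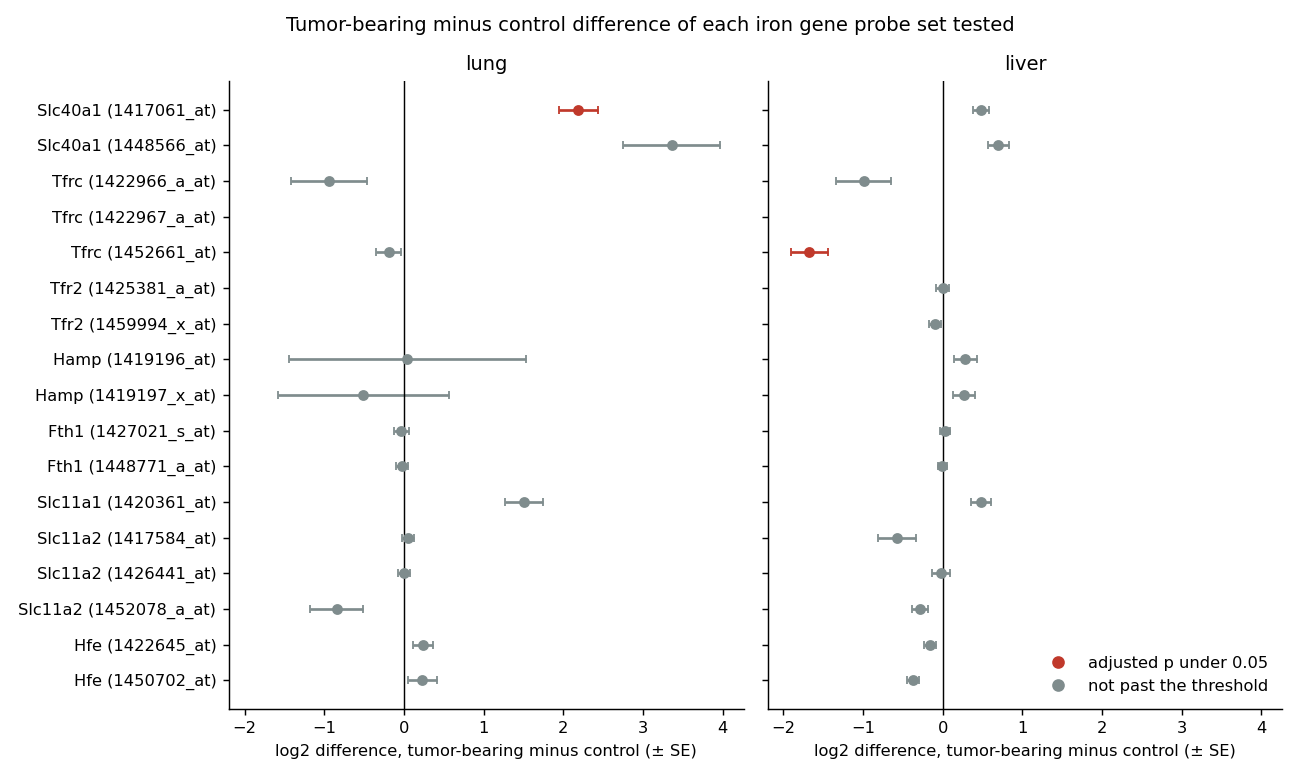
The log2 difference between tumor-bearing and control arrays is plotted on the x axis for each iron gene probe set tested, with its standard error as a bar, in lung on the left and in liver on the right (3 arrays per group). The probe sets in red, Slc40a1 1417061_at in lung at 2.19 and Tfrc 1452661_at in liver at -1.67, had an adjusted p under 0.05; a row without a point was not tested in that organ.

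Hamp, whose hormone acts on ferroportin protein, did not pass the threshold in either organ. In liver, probe set 1419196_at read 14.98, 14.89 and 14.94 in tumor-bearing mice, against 14.49, 14.51 and 14.96 in control mice. Control liver replicate 3 lay among the tumor-bearing livers and the other control livers below them. The log2 difference was 0.28 (SE 0.14, limma adjusted p = 0.277), and 0.20 to 0.44 with any 1 array left out. By probe set 1419197_x_at control liver replicate 3 read 14.797, above the tumor-bearing livers at 14.795, 14.743 and 14.734. The other control livers again lay below the tumor-bearing livers, and the log2 difference was 0.27 (limma adjusted p = 0.303). The x in the name of 1419197_x_at marks probes that can match other sequences, such as the near copy Hamp2, so its reading need not be of Hamp alone. The name of 1419196_at carries no such mark. The Hamp2 probe set 1436643_x_at averaged 7.54 in tumor-bearing livers and 7.01 in control livers (limma adjusted p = 0.204). Its name carries the x as well, so its reading need not be of Hamp2. The other Hamp2 probe set, 1456289_at, has no such mark, stood at the lowest value on all liver arrays and was not tested. Whether Hamp2 was expressed in liver is therefore not settled by these values. Hamp values in liver ran from 14.30 to 14.98 over both probe sets, below the highest on any array, 16.72.

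In lung, Hamp probe set 1419196_at read 7.44, 7.68 and 6.92 in tumor-bearing mice and 3.83, 8.36 and 9.73 in control mice. The control lungs covered a range wider than the tumor-bearing lungs on both sides, and the difference was 0.04 with a standard error of 1.49 (limma adjusted p = 0.995). With any 1 lung array left out it ran from -1.70 to 1.25, so its direction depends on single arrays. The Trf and Srprb probe set read 12.35, 11.50 and 11.93 in tumor-bearing lungs and 11.67, 11.73 and 12.60 in control lungs, with the highest value of each group on its Alb-rich array. In liver it read 16.18, 16.19 and 16.19 in tumor-bearing mice and 16.10, 16.12 and 16.14 in control mice, a log2 difference of 0.07 near the highest value on any array.

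**Figure D4:**
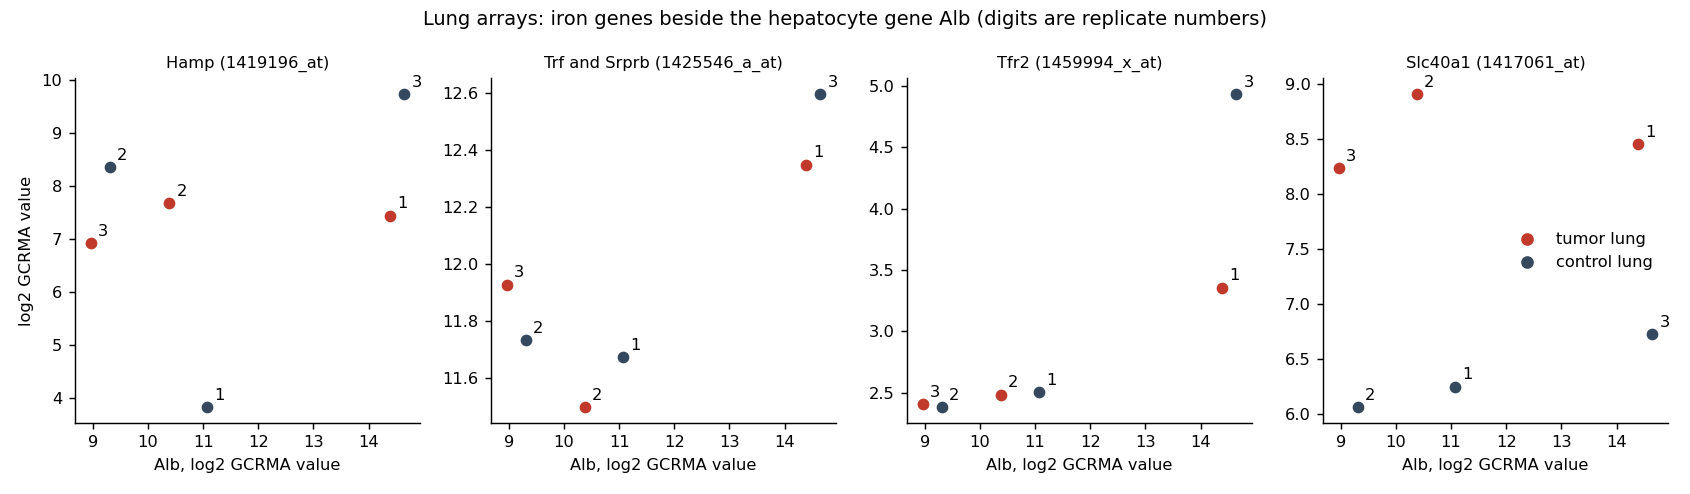
Each point is 1 lung array, with the log2 value of the hepatocyte gene Alb on the x axis and that of an iron gene probe set on the y axis, tumor-bearing lung in red and control lung in dark blue. The arrays with Alb at 14.39 and 14.65 are the highest of their groups for Tfr2 and for the Trf and Srprb probe set. For Hamp the highest tumor-bearing lung, at 7.68, has Alb at 10.38, and the control lung with the lowest Alb, 9.31, reads 8.36. For Slc40a1 the 3 tumor-bearing lungs lie above the 3 control lungs. The Alb-rich control lung is the highest control at 6.73, while the highest tumor-bearing lung, at 8.91, has Alb at 10.38.

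The transferrin receptor gene Tfrc was lower in tumor-bearing livers. Probe set 1452661_at read 8.79, 9.22 and 9.51 in tumor-bearing livers, against 11, 11.02 and 10.53 in control livers. Every tumor-bearing liver lay more than 1 log2 unit below the lowest control liver. The log2 difference was -1.67 (SE 0.23), 3.19-fold lower, with a limma adjusted p of 0.045 over all liver probe sets. It ran from -1.84 to -1.48 with any 1 of the 6 arrays left out, and the adjusted p was then 0.0767 to 0.149, so the call needed all of them.

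A second Tfrc probe set, 1422966_a_at, read 3.54, 4.60 and 4.75 in tumor-bearing livers and 5.57, 5.13 and 5.16 in control livers, without overlap. Its log2 difference was -0.99 (SE 0.35, limma adjusted p = 0.154). The third, 1422967_a_at, stood at the lowest value on 10 of 12 arrays and could not be tested. In lung, probe set 1452661_at read 11.34, 10.91 and 10.90 in tumor-bearing mice and 11.26, 11.38 and 11.09 in control mice, overlapping groups with a log2 difference of -0.19 (SE 0.16, limma adjusted p = 0.653). Probe set 1422966_a_at read 4.93, 4.64 and 3.14 in tumor-bearing lungs and 5.08, 5.46 and 5.01 in control lungs, a log2 difference of -0.95 (SE 0.48, limma adjusted p = 0.485). Here the brighter and the dimmer probe set differed in size in lung but not in direction.

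The Tfrc difference was compared between organs on all 12 arrays. By probe set 1452661_at the tumor-bearing minus control difference was 1.48 higher in lung than in liver (SE 0.29, limma adjusted p = 0.0436), Tfrc being lower in the livers. The adjusted p was 0.14 without the 2 Alb-rich lung arrays, where the difference was 1.26, and 0.0358 to 0.105 with any 1 array left out. It stayed under the threshold only when tumor-bearing liver replicate 3 or control liver replicate 3 was left out. By probe set 1422966_a_at the organs differed by 0.05 (limma adjusted p = 0.982), so the difference between organs rests on the brighter probe set.

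Tfrc is used most by red cell precursors and dividing cells, and markers of both were read in liver. The mean over 9 erythroid genes ran from 3.69 to 4.08 in tumor-bearing livers and from 4.09 to 4.11 in control livers. Of 5 erythroid probe sets tested 4 were lower and none passed the threshold. Car1, a carbonic anhydrase gene of red cells, read 4.94, 5.03 and 4.15 in tumor-bearing livers and 6.85, 6.39 and 6.29 in control livers (limma adjusted p = 0.0516). Car1 had the largest log2 difference of them, -1.80. The others tested differed by far less: Alas2 by -0.15, Car2 by -0.02, and Slc4a1 by -0.23 and 0.19 by its probe sets. Rhag, Trim10, Epb42 and Hba-a1 stood within 0.05 of the lowest value on all 6 liver arrays. The mean over 6 genes of dividing cells was higher, at 4.72 to 6.37 in tumor-bearing livers and 4.10 to 4.29 in control livers. The 5 probe sets tested, of Mcm5, Mcm6 and Rrm2 only, were all higher and none passed the threshold. A probe set of Rrm2 was at or under 4 in all control livers and entered the test only through the tumor-bearing livers. It had to be higher there, so its direction adds no support. Mki67, Top2a and Cdk1 did not pass the filter on low values and were not tested in liver. The part of the erythroid and dividing cell genes in the Tfrc difference was not tested.

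Tfr2 and Hfe, the hepatocyte partners in iron sensing, showed small differences in liver. Tfr2 probe set 1425381_a_at read 12.50, 12.57 and 12.61 in tumor-bearing livers and 12.51, 12.67 and 12.51 in control livers, a log2 difference of -0.00 (SE 0.08, limma adjusted p = 0.989). Probe set 1459994_x_at differed by -0.10 (limma adjusted p = 0.427). In lung neither Tfr2 probe set passed the filter on low values, and 1459994_x_at reached 3.36 in tumor-bearing and 4.93 in control lungs, each on the Alb-rich array.

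Hfe probe set 1422645_at read 10.35, 10.42 and 10.28 in tumor-bearing livers, against 10.49, 10.57 and 10.46 in control livers, a log2 difference of -0.16 (SE 0.07, limma adjusted p = 0.249). In lung the same probe set read 8.93, 9.07 and 9.30 in tumor-bearing mice and 8.74, 8.88 and 8.96 in control mice, a log2 difference of 0.24 with overlapping groups (limma adjusted p = 0.503). Probe set 1450702_at read 4.15 in all 3 tumor-bearing livers and 4.45, 4.62 and 4.49 in control livers, a log2 difference of -0.37 (limma adjusted p = 0.0616). It gave 4.15 within 0.01 on 4 of 12 arrays, so this probe set carries little information. Both Hfe probe sets lay below the controls in liver. The difference between organs was 0.40 and 0.60 by the 2 probe sets and did not pass (limma adjusted p = 0.214 and 0.175).

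The phagocyte transporter gene Slc11a1 was read higher in tumor-bearing mice in both organs, without passing the threshold. Its single probe set read 7.60, 8.02 and 7.40 in tumor-bearing lungs, against 6.53, 5.81 and 6.16 in control lungs. The groups did not overlap, and the log2 difference was 1.51 (SE 0.24), 2.84-fold, with a limma adjusted p of 0.0835. It passed when all 12 arrays were in 1 fit (limma adjusted p = 0.0045), as did the second Slc40a1 probe set (limma adjusted p = 0.0056). In that fit 2.46% of all lung probe sets passed, against 0.407% with the lung arrays fitted alone. With any 1 lung array left out the limma adjusted p of Slc11a1 was 0.138 to 0.27. In liver Slc11a1 read 8.96, 8.67 and 8.95 in tumor-bearing mice and 8.32, 8.56 and 8.25 in control mice, a log2 difference of 0.48 (SE 0.13, limma adjusted p = 0.0995). The difference between organs was 1.03 (SE 0.29, limma adjusted p = 0.112). The neutrophil and macrophage marker values given beside Slc40a1 apply here as well.

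Slc11a2, the importer used in endosomes, was read lower in tumor-bearing mice by its probe set 1452078_a_at. That probe set read 7.29, 6.74 and 6.15 in tumor-bearing lungs and 7.57, 7.94 and 7.20 in control lungs, a log2 difference of -0.84 (SE 0.33, limma adjusted p = 0.382). The groups overlapped, since the highest tumor-bearing lung lay above the lowest control lung. In liver it read 6.03, 6.03 and 6.12 in tumor-bearing mice and 6.42, 6.17 and 6.45 in control mice, a log2 difference of -0.29 (limma adjusted p = 0.148). The liver groups did not overlap. Probe set 1417584_at read 5.56, 5.10 and 5.39 in tumor-bearing livers and 5.67, 6.41 and 5.69 in control livers, a log2 difference of -0.58 (limma adjusted p = 0.207). The last 2 probe sets carry little information: 1426441_at gave 6.62 within 0.01 on 10 of 12 arrays, and 1417584_at gave 5.56 on 5 of 12.

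Fth1, the ferritin heavy chain gene, varied little between arrays. Probe set 1448771_a_at read 15.95, 15.94 and 15.96 in tumor-bearing lungs and 16.00, 15.97 and 15.97 in control lungs, a log2 difference of -0.03 (SE 0.08, limma adjusted p = 0.906). In liver it read 15.68, 15.72 and 15.69 in tumor-bearing mice and 15.69, 15.70 and 15.72 in control mice, a log2 difference of -0.00 (limma adjusted p = 0.971). Probe set 1427021_s_at, whose name marks probes shared with other transcripts, differed by -0.03 in lung and 0.03 in liver (limma adjusted p = 0.918 and 0.815). The values of probe set 1448771_a_at are close to the highest on any array, so a change in Fth1 mRNA could be understated by it.

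Over the members as a whole, groups did not overlap for 5 of 14 probe sets in lung and 9 of 16 in liver. The same held for 18.2% of all probe sets tested in lung and 32.9% in liver. In lung these 5 were both Slc40a1 probe sets and Slc11a1 above the controls, and 1422966_a_at of Tfrc and 1448771_a_at of Fth1 below them. In liver Slc40a1 and Slc11a1 lay above the controls by all 3 probe sets, and Tfrc, Hfe and Slc11a2 lay below them by 2 probe sets each. Among the latter, 1450702_at of Hfe and 1417584_at of Slc11a2 repeat a single value on several arrays and carry little information.

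The rest of the iron and heme network was read from 7 lists of 68 genes, of which 56 matched a probe set. In lung, 78 probe sets of 50 genes were tested, 1 was higher and none lower with an adjusted p under 0.05, and 10 had an unadjusted p under 0.05. In liver, 78 probe sets of 48 genes were tested, 1 was higher and none lower, and 22 had an unadjusted p under 0.05. Over all probe sets tested, 0.407% of 12296 passed in lung and 1.54% of 11972 in liver, with 1554 and 3063 at an unadjusted p under 0.05, so these counts lie near the background. The called genes were Ltf in lung and Smad7 in liver. The median log2 difference was -0.08 in lung, with 29 probe sets higher and 49 lower, and 0.03 in liver, with 43 higher and 35 lower.

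**Figure D5:**
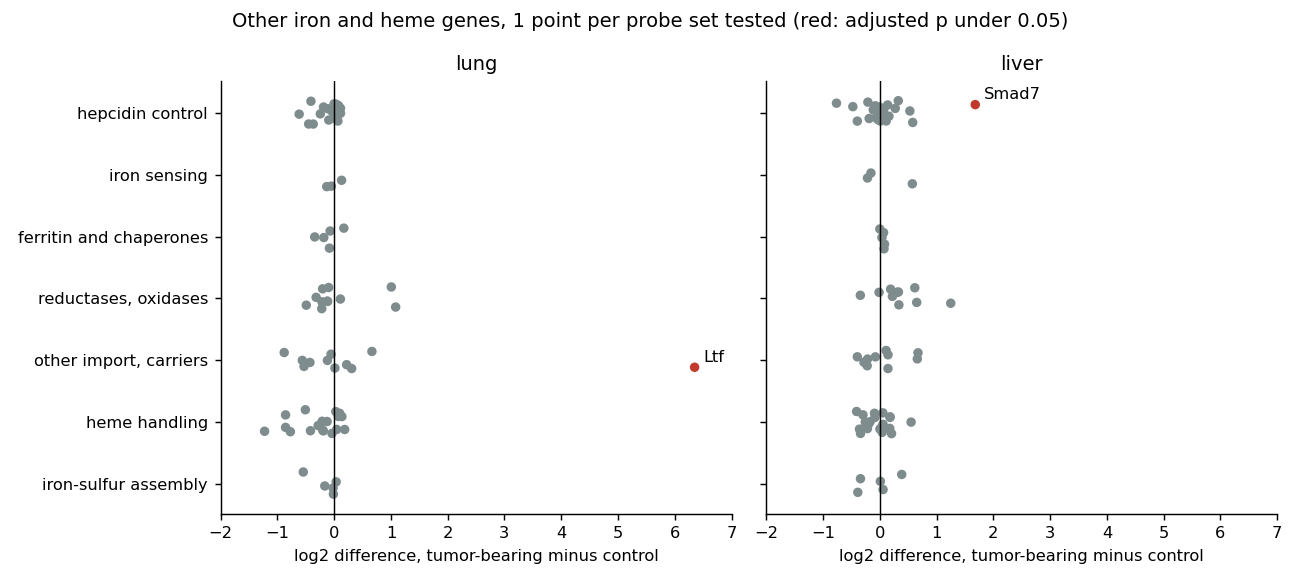
Each point is 1 probe set of the 7 other iron and heme gene lists, placed at its log2 difference between tumor-bearing and control arrays (x axis), in lung on the left and in liver on the right. Red points had an adjusted p under 0.05: Ltf in lung at 6.35, which includes control values at or under 4, and Smad7 in liver at 1.68.

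Among regulators of hepcidin, Smad7, the inhibitory SMAD that dampens BMP signalling to Hamp, was higher in tumor-bearing livers. It read 7.99, 7.57 and 7.82 there, against 6.02, 6.03 and 6.28 in control livers, a log2 difference of 1.68 (SE 0.14, limma adjusted p = 0.0331). In lung it read 9.30, 9.76 and 10.32 in tumor-bearing mice and 10.18, 10.24 and 10.18 in control mice, a log2 difference of -0.41 (limma adjusted p = 0.563). With any 1 of the 6 liver arrays left out, the adjusted p in liver was 0.0666 to 0.139. The lung minus liver value was -2.09 (SE 0.31, limma adjusted p = 0.0134), with an adjusted p of 0.00532 to 0.0411 when any 1 of the 12 arrays was left out. No other of the 23 probe sets of this list tested in liver passed. Acvr2a, a receptor of the BMP and activin family, differed by -0.76 in liver by probe set 1437382_at (limma adjusted p = 0.0836) and by -0.19 by its other probe set, while Smad6, another inhibitory SMAD, and the BMP receptor gene Bmpr2 differed by -0.62 and -0.45 in lung (limma adjusted p = 0.416 and 0.477).

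Of the iron regulatory protein genes, Ireb2 read 10.93, 10.73 and 10.41 in tumor-bearing livers and 10.12, 10.15 and 10.09 in control livers, a log2 difference of 0.57 (limma adjusted p = 0.0893). Aco1 differed by -0.22 in liver by probe set 1456728_x_at (limma adjusted p = 0.129). In lung Ireb2 differed by -0.05 and Aco1, by probe set 1423644_at, by -0.13, against 0.13 by 1456728_x_at. None of the 3 probe sets of these genes passed in either organ. Ncoa4, the receptor that carries ferritin to lysosomes, and Pcbp2, an iron chaperone, differed by 0.08 and 0.07 in liver and by -0.34 and 0.17 in lung by the probe sets with the larger differences. The other Pcbp2 probe set differed by -0.07 in lung, and none of the 5 probe sets of that list passed.

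The ferrireductase gene Steap4 was read higher in both organs. In liver probe set 1425829_a_at read 11.51, 11.55 and 11.60 in tumor-bearing mice and 9.73, 10.39 and 10.80 in control mice, a log2 difference of 1.25 (SE 0.27, limma adjusted p = 0.0708). In lung probe set 1460197_a_at read 9.86, 10.20 and 9.79 in tumor-bearing mice and 8.61, 9.28 and 8.71 in control mice, a log2 difference of 1.08 (SE 0.22, limma adjusted p = 0.135). Neither pair of groups overlapped. The other Steap4 probe set of each organ differed by 0.65 in liver and 1.01 in lung. Cp, the gene of the plasma ferroxidase ceruloplasmin, differed by 0.62 in liver by probe set 1417496_at (limma adjusted p = 0.0616), the largest of 7 Cp probe sets. The other Cp probe sets differed by -0.34 to 0.33 in liver, those at -0.34 and -0.01 being far dimmer there than the rest. In lung probe set 1417496_at of Cp differed by -0.49 (limma adjusted p = 0.716) and the other Cp probe sets by -0.32 to -0.10. None of the 11 lung and 10 liver probe sets of this list passed.

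Among other iron carriers and importers, Ltf, the gene of the iron-binding neutrophil granule protein lactoferrin, read 9.21, 8.62 and 8.82 in tumor-bearing lungs and 2.23, 3.14 and 2.23 in control lungs. With the control lungs taken at 4 it was at least 29.5-fold higher. Ltf passed the filter only through the tumor-bearing lungs, so it had to differ and its limma adjusted p of 0.00284 adds no support; without a tumor-bearing lung array it was not tested. In liver its 6 values lay between 2.06 and 2.19. The metal importer gene Slc39a8 differed by 0.67 in liver by probe set 1448482_at (limma adjusted p = 0.0771) and by 0.14 by its other, brighter probe set. Slc39a14, a hepatocyte importer of iron not bound to transferrin, differed by 0.66 in liver by probe set 1425649_at (SE 0.63, limma adjusted p = 0.545), but by -0.08 by its brighter probe set (limma adjusted p = 0.834). Scara5, a ferritin receptor gene, differed by -0.88 in lung, and by -0.70 with values under 4 set to 4 (limma adjusted p = 0.633 as read).

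Of the heme genes, Hmox1, the heme oxygenase that frees iron from heme, lay in opposite directions in the 2 organs. It read 7.63, 7.13 and 6.83 in tumor-bearing lungs, against 7.98, 8.13 and 8.06 in control lungs, a log2 difference of -0.86 (SE 0.21, limma adjusted p = 0.2). In liver it read 8.84, 8.41 and 8.90 in tumor-bearing mice and 8.34, 8.15 and 7.996 in control mice, a log2 difference of 0.55 (SE 0.16, limma adjusted p = 0.117). Neither passed within an organ, but the difference between organs did, at -1.41 (SE 0.28, limma adjusted p = 0.0436). That adjusted p ran from 0.0209 to 0.102 with any 1 array left out, and was under 0.05 only without tumor-bearing lung replicate 1 or tumor-bearing liver replicate 2. Cd163, the haptoglobin-hemoglobin receptor of macrophages, differed by -1.23 in lung (limma adjusted p = 0.389) and Alad, a heme synthesis gene, by -0.41 in liver (limma adjusted p = 0.109). Of the iron-sulfur assembly genes, Isca1 differed by -0.54 in lung and by -0.39 in liver by probe set 1423652_at (limma adjusted p = 0.298 and 0.123), and by -0.17 and -0.34 by its other probe set. Nfs1 differed by 0.39 in liver by probe set 1431431_a_at (limma adjusted p = 0.19) and by 0.01 by probe set 1416373_at, and in lung by -0.02 and 0.03 by the same probe sets.

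The genes whose values ran most like 3 of the members were found by the root mean square difference over the 6 arrays of an organ, each probe set centred on its own mean. For Tfrc in liver, among 11970 probe sets compared, they were Phc2 at 0.145, Sgms1 at 0.166 and Gpsm1 at 0.212 log2 units. For Hamp in liver they were Galnt4 at 0.0364, 1110059G10Rik at 0.0453 and Fam210b at 0.0541 log2 units, all with a difference of 0.24 to 0.31 between tumor-bearing and control livers that missed the threshold. For Slc11a1 in lung, among 12295 probe sets, they were Socs3 at 0.194, Igsf6 at 0.198 and Ripor2 at 0.198 log2 units. The 6 arrays fall into 2 groups, so a similar group difference is part of this measure.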

How the data were processed

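RNA from 12 tissue samples, 3 arrays in each of 4 groups, was hybridised to Affymetrix expression arrays. The deposited log2 values, 1 per probe set and array, came from GCRMA, per the submitters' processing notes. GCRMA subtracts background with a probe sequence model and applies quantile normalization, which can hide a shift shared by most genes. Those notes also name limma, without versions or settings.

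Genes were assigned from the platform annotation, and probe sets with several symbols (691) or none listed (1555) were left out. Probe sets above 4 (log2) on 3 or more of the fitted arrays entered the test with limma 3.58.1 (lmFit and eBayes) in R 4.3.3, separately in lung, in liver and between control organs, and on all 12 arrays for the difference between organs, which treats the arrays as separate samples. P-values were adjusted over all probe sets tested by Benjamini-Hochberg, with a threshold of 0.05, and the code was tested on simulated data. Where a whole group lay at or under 4, a fold is a lower bound against 4.

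The members, gene lists, markers and tests were chosen with earlier results of these data known. Named genes were all members, other iron genes past the threshold, the 2 largest differences per list and organ, and the 3 genes most like Tfrc, Hamp and Slc11a1. Alternatives covered the filter, normalization, eBayes options, array weights, joint fits, replicate blocks and left-out arrays. Chosen after seeing the values were setting values under 4 to 4, and leaving out the Alb-rich lung arrays for the other iron genes. Same-numbered tumor-bearing and control arrays, which are from different mice, correlated at -0.05, 0.26 and -0.16 in lung after centring. In liver these values were -0.01, 0.14 and 0.00, and the numbers were not used as pairs. Same-numbered lung and liver arrays correlated at 0.10, 0.02 and 0.06 in tumor-bearing and at 0.16, -0.01 and 0.09 in control mice. Lung and liver share the array numbers of the descriptions, but no label ties these numbers to mice. The number of arrays limits the precision.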

Additional observations from a re-analysis of the deposited data

Results flagged for a closer look

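The tumor-bearing minus control difference was itself different in lung and liver for 5 iron-related genes, by limma's test on all 12 arrays with an adjusted p under 0.05. The lung minus liver value was 1.71 for Slc40a1 by probe set 1417061_at (adjusted p = 0.0198), with a difference of 2.19 in lung and 0.48 in liver. It was 1.48 for Tfrc by probe set 1452661_at (adjusted p = 0.0436), with -0.19 in lung and -1.67 in liver. It was -2.09 for Smad7 (adjusted p = 0.0134), with -0.41 in lung and 1.68 in liver, and -1.41 for Hmox1 (adjusted p = 0.0436), with -0.86 in lung and 0.55 in liver. For Ltf it read 6.26 (adjusted p = 1.18e-05), but its liver and control lung arrays all lay under 4 and it passed the filter only through tumor-bearing lung, so neither the size nor the p is support. With values under 4 set to 4 the lung difference of Ltf was 4.88 and no liver difference could be read. All values are on the log2 scale, and the test treats lung and liver arrays as separate samples.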

How the results depend on the processing

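With 3 arrays per group the member calls within an organ stood close to the threshold. The count of called member probe sets in lung was 1 as reported, 0 with no filter, with the replicate block and without the Alb-rich arrays, 3 with all 12 arrays in 1 fit, and 0 with each array left out. In liver it was 1 as reported, 0 with no filter and with the replicate block, 2 with the filter at 6 and with array weights, 3 with median centring and with trend and robust eBayes, and 0 with each array left out. For the difference between organs it was 2 as reported, 1 with no filter, 0 with the replicate block, and 0 to 2 with each array left out; with the array number of the descriptions as a random replicate block it was 2. The counts over all probe sets moved as well. In lung 50 of all probe sets were called as reported, 10 with no filter, 2 with the replicate block, 0 without the Alb-rich arrays, 303 with all 12 arrays and 0 to 6 with each array left out. In liver 184 were called as reported, 96 with no filter, 0 with the replicate block, 532 with the filter at 6, 303 with array weights, 362 with median centring, 576 with trend and robust eBayes and 0 to 4 with each array left out. In the difference between organs 176 were called as reported, 149 with no filter, 49 with the replicate block and 69 to 195 with each array left out. Between control organs the member count was 12 as reported, 7 of 8 with 1 probe set per gene, and 9 to 12 with each array left out.

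Among the other iron genes the count in lung was 1 as reported, 2 with the filter at 6, with array weights and with all 12 arrays, 3 with trend and robust eBayes, 0 with the replicate block and without the Alb-rich arrays, and 0 to 1 with each array left out. In liver it was 1 as reported, 3 with the filter at 6 and with median centring, 4 with trend and robust eBayes and with all 12 arrays, 0 with the replicate block, and 0 with each array left out. With the replicate block the adjusted p was 0.202 for Slc40a1 in lung (probe set 1417061_at) and 0.122 for Tfrc in liver (1452661_at); with no filter these were 0.147 and 0.0934. Over all settings the log2 difference of the first stayed within 2.00 to 2.41, and that of the second within -1.84 to -1.48.

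Directions turned for the following values, none of them past the threshold. In lung, Slc11a2 1426441_at read 0.037 with quantile normalization and 0.0241 with median centring, Hamp 1419197_x_at 0.33 with array weights and 0.29 without the Alb-rich arrays, and Hamp 1419196_at -0.017 with values under 4 set to 4. In liver, Tfr2 1425381_a_at read 0.018 with quantile normalization, 0.12 with median centring and 0.0091 with array weights. Slc11a2 1426441_at read 0.022 with quantile normalization and 0.097 with median centring, Tfr2 1459994_x_at 0.018 with median centring, and Fth1 1448771_a_at 0.12 with median centring and 0.0025 with array weights. In the difference between organs, Tfrc 1422966_a_at read -0.0502 with median centring and -0.39 without the Alb-rich arrays, and Slc11a2 1426441_at -0.073 with median centring. Hamp 1419196_at read 0.94 with array weights and 0.92 without the Alb-rich arrays, Hamp 1419197_x_at 0.075 and 0.029, Tfr2 1459994_x_at 0.10 without the Alb-rich arrays, and Tfr2 1425381_a_at 0.0031 with values under 4 set to 4. The causes were not tested.

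With 1 array left out at a time, the ranges that crossed 0 were as follows. In lung they were -1.70 to 1.25 for Hamp 1419196_at, -1.69 to 0.42 for Hamp 1419197_x_at and -0.099 to 0.018 for Fth1 1427021_s_at. In liver they were -0.017 to 0.0033 for Fth1 1448771_a_at, -0.031 to 0.051 for Tfr2 1425381_a_at and -0.090 to 0.066 for Slc11a2 1426441_at. In the difference between organs they were -0.33 to 0.59 for Tfrc 1422966_a_at, -0.067 to 0.089 for Slc11a2 1426441_at, -1.98 to 0.97 for Hamp 1419196_at, -1.95 to 0.15 for Hamp 1419197_x_at and -0.87 to 0.41 for Tfr2 1459994_x_at. Between control organs they were -0.24 to 0.038 for Tfrc 1422966_a_at and -0.13 to 0.00043 for Slc11a2 1426441_at.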
